A study of Komagataella phaffii GS115 with 2 samples.

Results

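Genes with a low H3K36me3 signal in ChIP-seq, in which chromatin is immunoprecipitated and its DNA sequenced, are described here for cells of GS115. GS115 is a strain of the methylotrophic yeast Komagataella phaffii that is widely used to make recombinant proteins. A gene was taken as low when its identifier began with PAS_chr and its H3K36me3 value lay below 0.75 times the median of all genes. The rule selected 294 of the 4908 genes with such identifiers, or 5.99%, out of 5040 genes in all. Without the restriction on identifiers, 305 of the 5040 genes, or 6.05%, were below the threshold. The values themselves chose these genes, so their level is a description and not a finding.

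The labels list 2 ChIP libraries of 1 group, with no other strain, treatment or carbon source. They say that formaldehyde-fixed cells from shaken cultures were used. The values form 1 column of FPKM, that is, fragments that the authors scaled by the length of each gene and by a total, deposited with replicate 1. There is therefore no replicate error, no test between samples, and the sequencing depth is unknown. The values are not relative to input chromatin or to H3, so a low value does not separate less of the mark from fewer nucleosomes or from fewer mappable fragments, and these were not tested.

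H3K36me3 is a trimethylated lysine of histone H3. In budding yeast the methyltransferase Set2 places it over gene bodies while it travels with elongating RNA polymerase II. There the mark is read by the Eaf3 subunit of the Rpd3S deacetylase complex, which keeps transcription from starting inside genes. It is accordingly known as a mark of transcribed gene bodies. The deposited table and the RefSeq gene table pair the locus tags with no gene name, product or function, so no function is given for any of the 294 genes, which are named by locus tag.

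The low genes ranged from just below the threshold down to 20.3 FPKM, and 10 of them had less than 0.5 times the median of all genes. The median of all genes was 138 FPKM, which put the threshold at 104 FPKM. The low genes had a median of 95.4 FPKM, with quartiles at 89.3 and 100.1 FPKM, which is 0.69 of the overall median. The other 4614 genes with PAS_chr identifiers had a median of 139 FPKM. Of the low genes, 131 lay between 0.7 and 0.75 times the median of all genes and 125 between 0.6 and 0.7 times. Another 28 lay between 0.5 and 0.6 times, and 10 lay below 0.5 times the median. The 3 genes just inside the threshold were PAS_chr3_0869, PAS_chr1-3_0290 and PAS_chr2-2_0074, at 103.676, 103.684 and 103.731 FPKM. The 3 just outside it were PAS_chr3_1117, PAS_chr3_1212 and PAS_chr1-1_0021, at 103.752, 103.780 and 103.905 FPKM. No gap in the values separated the low genes from the others. The low genes made up 5.83% of all genes and 3.68% of the summed gene length. Their FPKM times length made up 2.50% of that of all genes.

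The 10 lowest genes were spread over all 4 chromosomes, and 4 of the 10 lay within 10 genes of a chromosome end. PAS_chr1-4_0001 was the lowest, at 20.3 FPKM, 0.15 of the overall median. It was only 195 nt long and followed a gene at 143 FPKM, the last one with the prefix PAS_chr1-1, at the point where the locus tags change prefix. The gene after it, PAS_chr1-4_0002, was also low, at 90.2 FPKM. PAS_chr4_0878 (486 nt) had 54.3 FPKM and lay in a run of 3 low genes. PAS_chr2-2_0003 (1524 nt), the last gene of chromosome 2, had 55.7 FPKM beside a gene at 126 FPKM. These 3 genes thus differed in setting, since they lay at a change of prefix, inside a run and at a chromosome end.

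A pair of the lowest genes lay close together at the start of chromosome 2. PAS_chr2-1_0004 (750 nt) was the third gene, at 61.0 FPKM between neighbours at 135 and 137 FPKM. PAS_chr2-1_0007 (1188 nt) was the sixth gene, at 64.0 FPKM between neighbours at 120 and 163 FPKM. Each was isolated, with neighbours on both sides above the threshold. PAS_chr1-3_0016 (768 nt), gene 10 of chromosome 1, had 68.6 FPKM between neighbours at 138 and 131 FPKM. The other 4 of the 10 lowest lay in the interior of chromosomes 1, 2 and 3. PAS_chr2-2_0280 (963 nt) had 66.0 FPKM beside genes at 149 and 115 FPKM. PAS_chr1-4_0531 (771 nt) had 66.9 FPKM beside genes at 139 and 131 FPKM. PAS_chr1-4_0665 (756 nt) had 68.9 FPKM beside genes at 116 and 132 FPKM. Each of these was a single low gene between genes above the threshold. The remaining one, PAS_chr3_0590 (735 nt), at 68.7 FPKM, opened a run of 3 low genes. In all, 7 of the 10 lowest genes had no low gene beside them.

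Low genes occurred on every chromosome, from 1 to 18 of them in each part when a chromosome was cut into 10 equal parts in gene order. Chromosome 1 held 104 of them, or 7.17% of its 1451 genes with PAS_chr identifiers. Chromosome 2 held 79 (5.93% of 1333), chromosome 3 held 70 (5.94% of 1178) and chromosome 4 held 41 (4.33% of 946). Chromosome 4 had the smallest share, and 11 of its 41 low genes lay in its last part, which has 72 genes with PAS_chr identifiers. The other parts of chromosome 4 held from 1 to 5 low genes each. The longest stretch without a low gene was also on chromosome 4, where 95 genes lay between PAS_chr4_0204 and PAS_chr4_0289. On chromosomes 1, 2 and 3 the longest such stretches were of 75, 79 and 66 genes. The median step from one low gene to the next was 9 genes on chromosome 1, 12 on chromosome 2, 14 on chromosome 3 and 9.5 on chromosome 4.

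**Figure D1:**
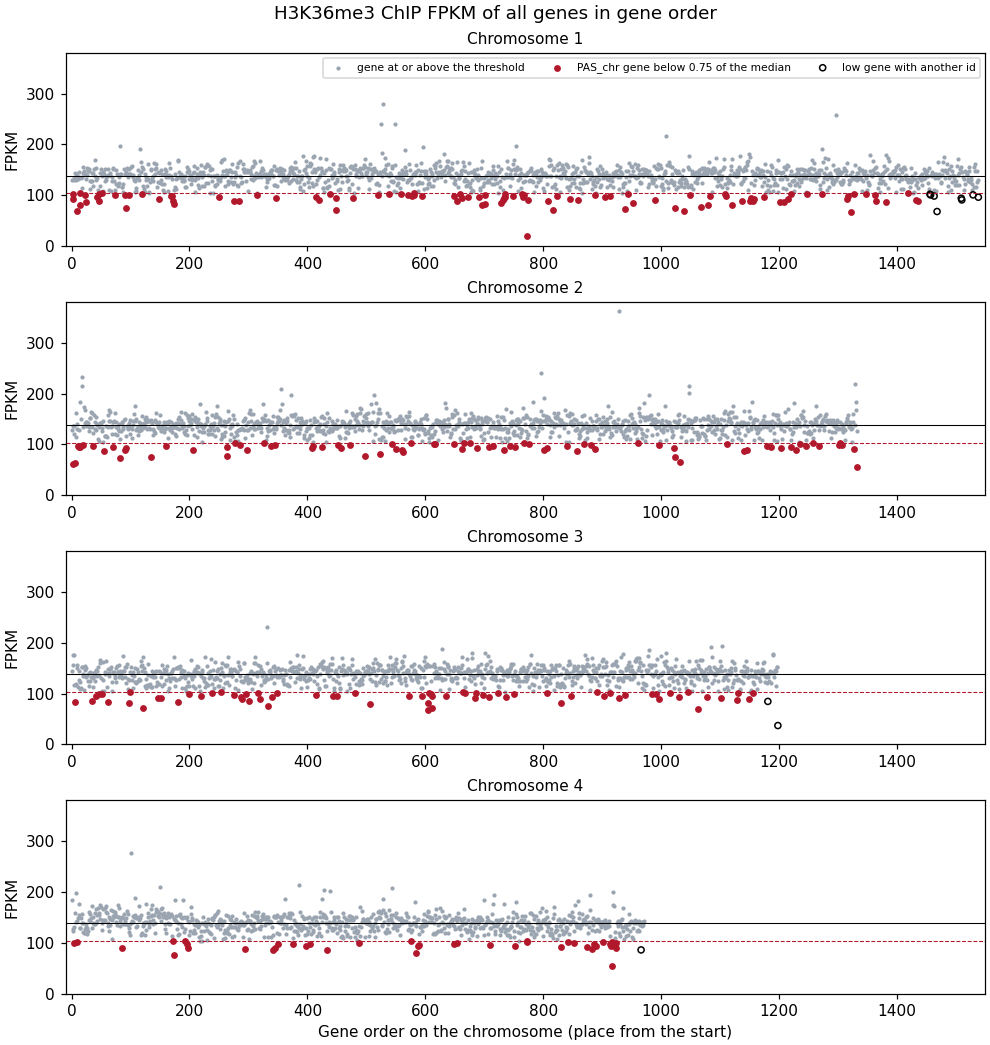
FPKM in the H3K36me3 ChIP (vertical axis) of every gene, plotted by its place in gene order on each of the 4 chromosomes (horizontal axis). The solid line is the median of all genes, 138 FPKM, and the dashed line the threshold, 104 FPKM. The 294 low genes (red) are scattered along all chromosomes, with a dense group near the end of chromosome 4; the 11 low genes with other identifiers are open circles.

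Grouped by the prefix of the locus tag, the share of low genes ran from 4.33% to 8.28%. It was 8.28% for PAS_chr1-3 (24 of 290 genes), 7.05% for PAS_chr1-1 (34 of 482) and 6.77% for PAS_chr1-4 (46 of 679), the 3 PAS_chr prefixes of chromosome 1. It was 6.26% for PAS_chr2-1 (54 of 862) and 5.31% for PAS_chr2-2 (25 of 471). It was 5.94% for PAS_chr3 (70 of 1178) and 4.33% for PAS_chr4 (41 of 946). These 3 prefixes of chromosome 1 thus had the 3 highest shares. Among genes shorter than the median gene alone, PAS_chr1-3 was again highest (20 of 149, 13.4%) and PAS_chr4 lowest (30 of 485, 6.19%). Where prefixes change or end inside a chromosome, 3 of the 45 genes within 5 places of such a border were low, a share close to the 5.99% of all PAS_chr genes.

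Low genes were mostly short. Their median length was 813 nt, with quartiles at 564 and 1130 nt, against 1236 nt for the other genes with PAS_chr identifiers. Of the 294 low genes, 233 (79.3%) were shorter than the median gene of 1197.5 nt. Divided into 10 classes of 504 genes by length, the 3 shortest classes had low shares of 11.8%, 9.47% and 11.5%. The share then fell class by class to 0.62% (3 of 487 genes) in the longest class, of 2625 nt and above. The second longest class, from 2004 to 2623 nt, held 8 low genes (1.62%). Under 500 nt, 61 of 508 genes were low, and they made up 20.7% of the low genes against 10.4% of all genes with PAS_chr identifiers. The part of counting error in the low values of short genes was not tested, since the depth is unknown.

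**Figure D2:**
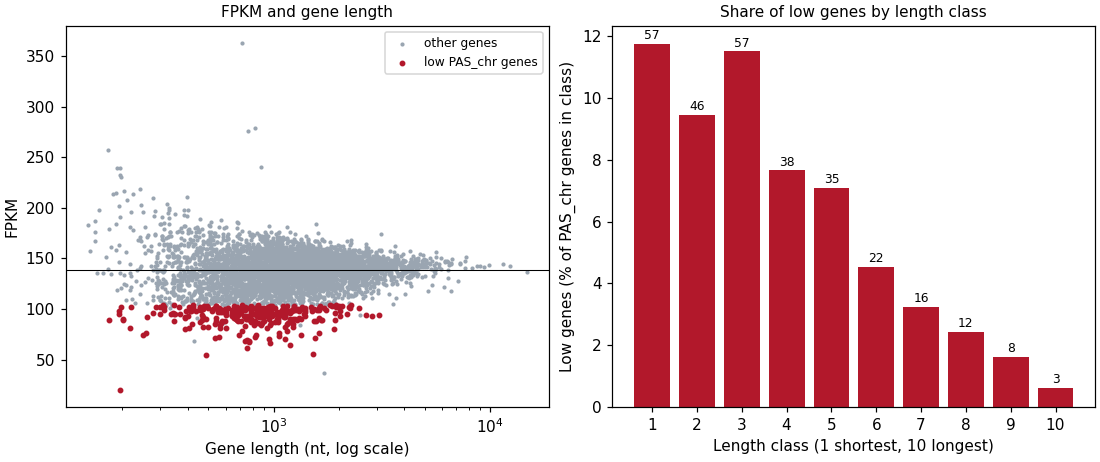
Left, FPKM in the H3K36me3 ChIP against gene length (log scale) for all 5040 genes, low genes in red and the median as a line. Right, low genes as a percentage of the PAS_chr genes in each of 10 length classes, with the number of low genes over each bar; the bars fall from 11.8% in the shortest class to 0.62% in the longest.

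The longest low genes, singled out after their values were seen, were moderately low. PAS_chr1-1_0145 (3066 nt) had 93.9 FPKM, and the gene after it, PAS_chr1-1_0146, was low too, at 70.6 FPKM. PAS_chr2-1_0643 (2856 nt) had 92.9 FPKM between genes at 133 and 141 FPKM. PAS_chr4_0560 (2681 nt) had 94.4 FPKM, followed by a low gene at 96.5 FPKM. All 3 lay between 0.67 and 0.69 times the median of all genes, and 2 of them belonged to a pair of adjacent low genes.

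Most low genes stood alone, and a larger share of the genes beside them was low than of all genes. In gene order, the 294 low genes formed 227 single genes, 29 pairs and 3 runs of 3, with no longer run. Thus 67 low genes (22.8%) had another low gene beside them. Of all genes with 2 neighbours, 595 of 5032 (11.8%) had a gene below the threshold on either side. Of the 587 genes immediately before or after a low gene, 70 (11.9%) were below the threshold themselves, against 6.05% of all genes. At 2 places the share was 3.75%, at 3 places it was 6.87% before and 6.83% after, and at 5 places 8.62% and 8.53%. At 4 places it was 6.55% and 6.48%. The share was thus highest at the adjacent place, under that of all genes at 2 places, and above it by less at 3 to 5 places. A pair of low genes counts once from each side, so the shares before and after are not separate observations. The rule used every gene's value, so these shares are a description of the same column of values and have no test.

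The genes beside a low gene had slightly lower values than all genes. The median was 132 FPKM for the gene before a low gene and 134 FPKM for the gene after it, against 138 FPKM for all genes. At 2 places away the medians were 140 and 138 FPKM. Of the neighbours above the threshold, the 248 short ones (below the median length) had a median of 132 FPKM, against 137 FPKM for all 2281 short genes above the threshold. The 269 long ones had a median of 139 FPKM, against 141 FPKM for all 2454 long genes above the threshold. The gap to other genes above the threshold was thus wider for short neighbours than for long ones. Both neighbours lay below the median of all genes for 116 of 293 low genes (39.6%), against 25.2% of all genes with 2 neighbours. Both lay above it for 52 of 293 (17.7%), against 25.2% of all genes.

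Genes above 1.25 times the median were 2.22% of all genes. Of the low genes, 7 of 293 (2.39%) had such a gene beside them, against 4.41% of all genes with 2 neighbours.

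**Figure D3:**
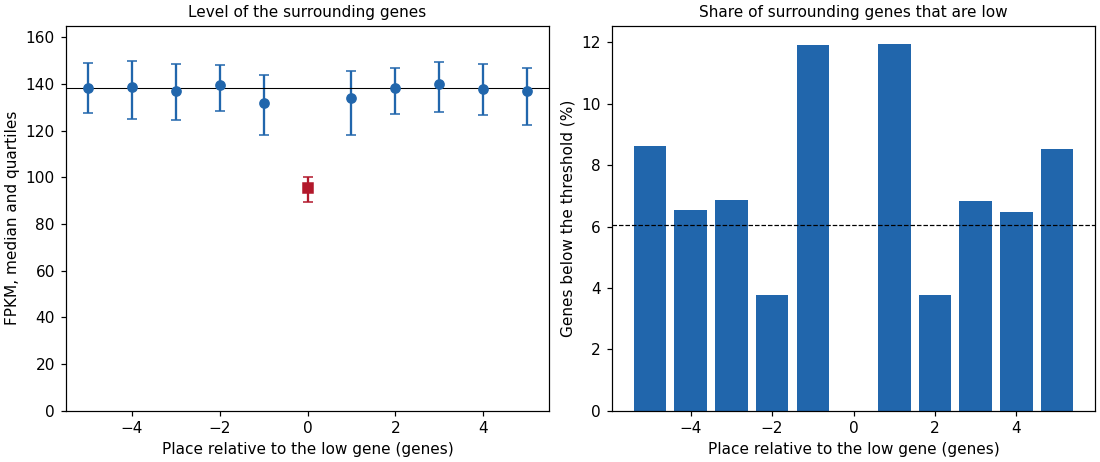
Left, median FPKM with quartiles (bars) of the genes 1 to 5 places before and after a low gene, in gene order, with the low genes themselves as a red square and the median of all genes as a line. Right, the percentage of those genes that were below the threshold, with 6.05% for all genes as a dashed line; the adjacent genes stand at 11.9%, and those 2 places away at 3.75%.

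The 29 pairs were spread over all 7 prefixes, with 6 in PAS_chr1-1, 5 each in PAS_chr1-3 and PAS_chr2-1, 4 each in PAS_chr3 and PAS_chr4, 3 in PAS_chr1-4 and 2 in PAS_chr2-2. The mean of the 2 genes of a pair ranged from 55.2 to 102.6 FPKM, with a median of 93.8 FPKM. The genes of a pair differed by a median of 9.28 FPKM. The lowest pair was PAS_chr1-4_0001 with PAS_chr1-4_0002, given above. Next were PAS_chr1-1_0145 with PAS_chr1-1_0146 and PAS_chr2-2_0288 with PAS_chr2-2_0287, the latter at 93.5 and 76.2 FPKM between genes at 147 and 135 FPKM. PAS_chr2-1_0527 and PAS_chr2-1_0528 had 88.4 and 85.2 FPKM between genes at 150.5 and 149 FPKM, so a pair could be low on nearly equal terms between genes above the median.

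All 3 runs of 3 low genes held a gene above 0.7 times the median of all genes, so at that threshold each would be a pair. These genes were PAS_chr3_0593, PAS_chr3_0597 and PAS_chr4_1001, at 0.731, 0.718 and 0.740 times the median. Of the 3 runs, 2 lay within 9 genes of each other on chromosome 3. In the first run PAS_chr3_0590 had 68.7 FPKM, PAS_chr3_0591 (1131 nt) had 81.8 FPKM and PAS_chr3_0593 (1719 nt) had 101 FPKM. The values rose along this run, after a gene at 158 FPKM. Then came 3 genes above the threshold, PAS_chr3_0594, PAS_chr3_0595 and PAS_chr3_0596, at 154, 155 and 125 FPKM. In the second run PAS_chr3_0597 (1239 nt) had 99.3 FPKM, PAS_chr3_0598 (825 nt) had 72.4 FPKM and PAS_chr3_0599 (1386 nt) had 95.0 FPKM. The gene after it, PAS_chr3_0600, had 154 FPKM. So 6 of 9 genes in this stretch were low, against 5.99% of all PAS_chr genes. Low genes set both ends of the stretch, so this share is high by construction. The genes that bordered and divided the stretch, other than PAS_chr3_0596, were above the median of all genes. Windows of 20 adjacent genes held at most 7 low genes, and the first window with that number ended with PAS_chr3_0599.

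The third run lay near the end of chromosome 4 and held the second lowest gene of all 294. In it PAS_chr4_0877 (918 nt) had 93.4 FPKM, PAS_chr4_0878 had 54.3 FPKM and PAS_chr4_1001 (312 nt) had 102 FPKM. The 3 genes that followed were above the median of all genes, with PAS_chr4_0879 (3135 nt) at 174 FPKM, PAS_chr4_0880 (330 nt) at 199 FPKM and PAS_chr4_0881 (537 nt) at 173 FPKM. At this border PAS_chr4_1001, just under the threshold at 0.74 times the median, was thus next to PAS_chr4_0879 at 1.26 times. With PAS_chr4_0875 before the run and the pair PAS_chr4_0885 and PAS_chr4_0887 farther on, 6 of 12 genes of the stretch were low. Both ends of this stretch were again set by low genes, so its share is high by construction.

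At the start of chromosome 2, by contrast, low genes were numerous but mostly separate. There 6 of the first 20 genes were low, against 5.99% of all PAS_chr genes. Only PAS_chr2-1_0012 and PAS_chr2-1_0013, at 96.0 and 95.5 FPKM, adjoined. The same 20 genes held 3 genes above 1.25 times the median, a level passed by 2.22% of all genes. These were PAS_chr2-1_0015, PAS_chr2-1_0018 and PAS_chr2-1_0019, at 183, 215 and 232 FPKM, all under 500 nt. This stretch was singled out after its values were seen.

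**Figure D4:**
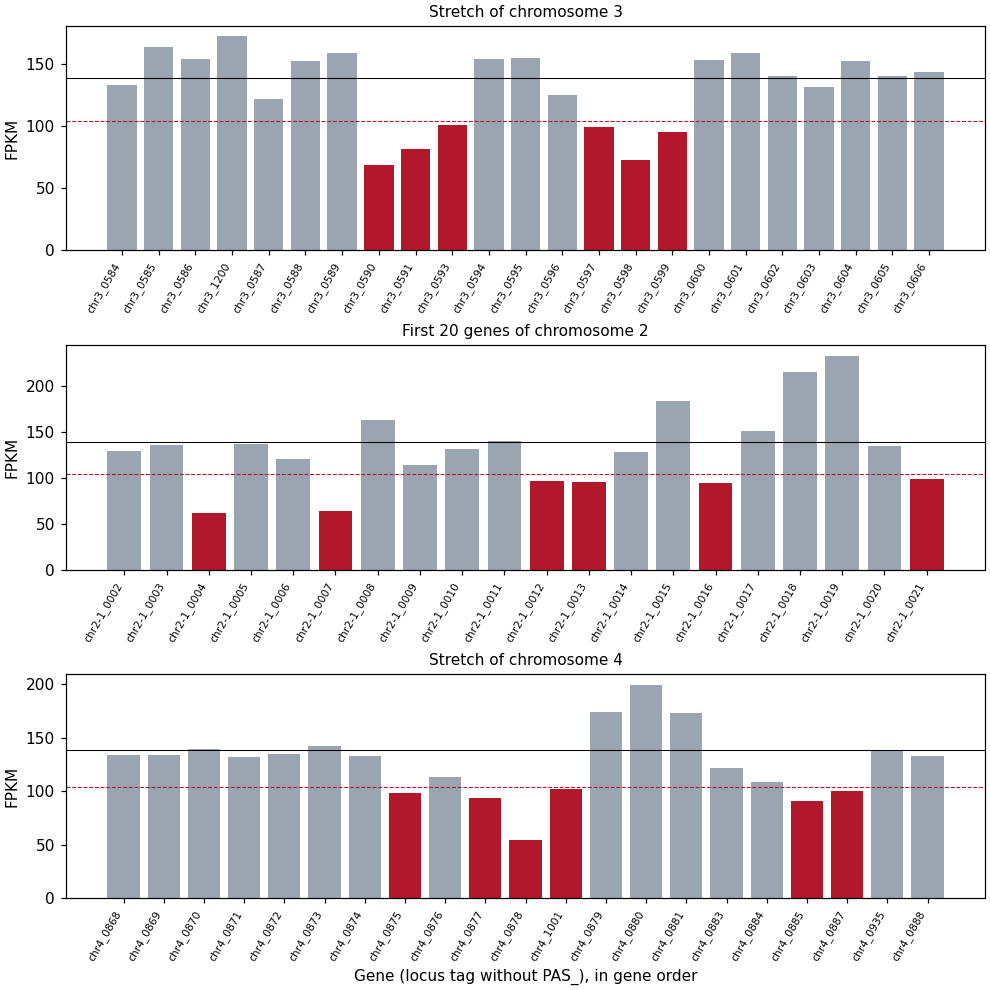
FPKM in the H3K36me3 ChIP (vertical axis) of each gene in gene order (horizontal axis) in 3 stretches: around the 2 runs of chromosome 3, the first 20 genes of chromosome 2 and around the run of chromosome 4. Low genes are red, the solid line is the median of all genes and the dashed line the threshold; on chromosome 3 the low genes form 2 blocks of 3 parted by 3 genes above the threshold, and on chromosome 4 a low block borders genes at 173 to 199 FPKM.

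A larger share of genes was low near the chromosome ends than in the interior. The identifiers matter for this count, because the outermost genes at the ends of chromosomes 1, 3 and 4 carry other prefixes and could not be members. Among the outermost 10 genes of the 8 chromosome ends, 50 had PAS_chr identifiers and 10 of these (20.0%) were low, against 5.99% of all PAS_chr genes. By end, 3 of 10 were low at the start of chromosome 1, 2 of 10 at each of the start of chromosome 2, the end of chromosome 2 and the start of chromosome 4, and 1 of 10 at the start of chromosome 3. From the 11 to the 25 place 8 of 80 genes (10.0%) were low, and from the 26 to the 50 place 14 of 175 (8.00%). From the 51 to the 100 place the share was 8.54%, so it did not fall at every step. Beyond 100 places 231 of 4240 genes (5.45%) were low. The median length was 1259.5 nt for these 50 genes, low or not, against 1200 nt beyond 100 places. Shares by length class were not taken near the ends, so the part of gene length was not tested. The count is small, with 50 genes, and has no test. Counted over all identifiers, 17.5% of the outermost 10 genes lay below the threshold. The share was then 7.5% from the 11 to the 25 place and 8.00% from the 26 to the 50 place. It was 8.75% from the 51 to the 100 place.

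The share of low genes was larger among genes far from both neighbours than among closely packed ones. Genes were divided into 5 classes by the summed distance to the genes before and after them in the RefSeq table. In the closest class 32 of 983 genes (3.26%) were low, and in the next 39 of 989 (3.94%). The third and the fourth classes had 7.38% and 7.19%, and the farthest class 80 of 983 (8.14%). Within genes shorter than the median gene the share ran from 4.91% (27 of 550) in the closest class to 14.0% (63 of 451) in the farthest. Among longer genes it was 1.15% (5 of 433) in the closest class and 3.20% (17 of 532) in the farthest. The median FPKM of all genes of a class differed little, at 138 FPKM in the closest class and 140 FPKM in the farthest. The classes also differed in length, with a median of 1110 nt in the closest and 1262 nt in the farthest. No median FPKM was taken within genes of like length. Of the genes that overlap a neighbour in the table, 2 of 146 (1.37%) were low. This comparison was chosen after the data were examined. The distances come from a table whose build may differ from that of the authors.

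**Figure D5:**
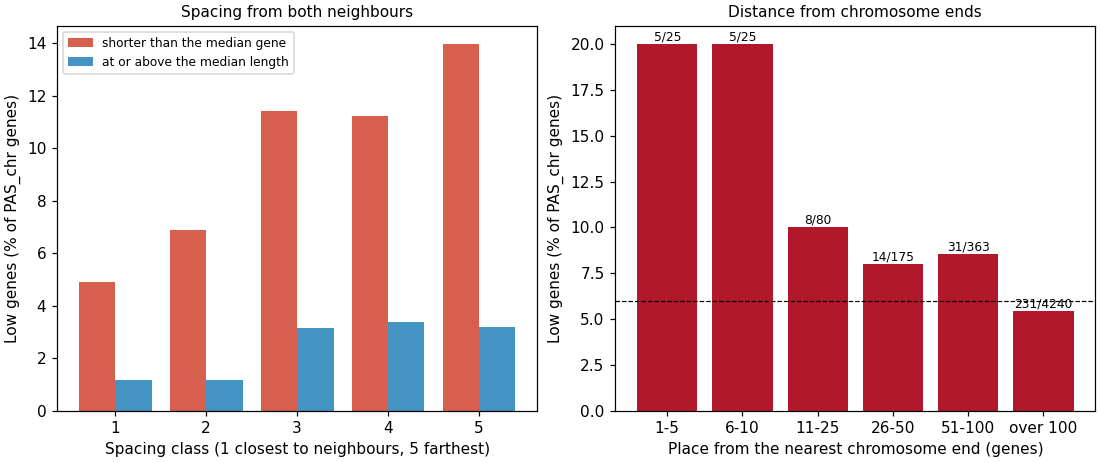
Left, low genes as a percentage of PAS_chr genes in 5 classes of distance from both neighbours, for genes below and at or above the median length; the short genes go from 4.91% to 14.0%. Right, low genes as a percentage of PAS_chr genes by place from the nearest chromosome end, with numbers of genes over the bars and 5.99% for all PAS_chr genes as a dashed line; the outermost 10 genes stand at 20.0%.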

How the data were processed

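The authors calculated FPKM values and deposited 1 column of them with replicate 1 of the H3K36me3 ChIP, per the file headers. Whether the second library enters it, which tool counted fragments, and which build and annotation were used are points not given in the sources used here. Tools listed, without a role, per the submitters' processing notes, are MACS2, deepTools, SAMtools, Bowtie2, Trimmomatic 0.39 and FastQC 0.12.1. All 5040 identifiers matched a locus tag in RefSeq's table of ASM2700v1 genes, whose order equals that of the file. That table gave gene order, chromosome, length and spacing, and no coordinate is printed. FPKM times length summed to 100.1% of the total that arises when fragments in these genes set the scale, so values compare genes and are not absolute.

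The low genes were counted by position, length and neighbours with Python 3.11.15, numpy 2.4.6, pandas 2.3.3 and scipy 1.17.1, and drawn with matplotlib 3.10.9. No statistical test was run. The run finder was tested on simulated data. The members and lists were chosen with earlier results of these data known. The genes named are the 10 lowest, those in runs of 3, and 3 on each side of the threshold; others were chosen after their values were seen. The planned product groups and gene orientation were left out because the table holds no product or strand. The alternatives were other thresholds, lengths, medians, pseudocounts and neighbour sets.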

Additional observations from a re-analysis of the deposited data

How the results depend on the processing

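No paired analysis was possible because there is no second group to pair with, and leaving out each replicate could not be run with a single column. Product groups and their alternatives were not run. Of 55 values under alternatives, 48 stayed within set bounds. These were 1.5 times the count, the 95% binomial interval of the share or the quartiles of the level. The interval treats genes as independent, and most alternatives keep many of the same genes, so this count is a loose measure of stability. Near chromosome ends, shares from 14% to 22.5% all counted as within bounds. The filter at 1 FPKM removed no gene. With thresholds of 0.7 and 0.8 times the median, 163 and 460 genes were low. Of these, 17.2% and 28.7% lay beside another low gene. None of the 3 runs of 3 low genes stayed whole at 0.7 times, where each became a pair. With fewer or more genes low, fewer or more can adjoin. At 0.7 times, 84.0% were shorter than the median gene, and among genes of at least 500 nt 73.8% were, the latter because the shortest were left out. Leaving out neighbours that were low themselves put 55.7% of neighbours below the median of all genes in place of 61.0%, since those neighbours all lie below it. With the median of a gene's own length class as reference, 260 genes were low. Depth is unknown, so counting error in short genes could not be set apart.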

Other observations

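Low values were also found in the genes whose identifiers kept them out of the 294. Of 132 genes with other prefixes 11 (8.33%) lay below the same threshold, from 37.1 to 102 FPKM, against 6.05% of all genes. The prefix PAS_c121 had 4 low genes of 18 (22.2%) and PAS_c131 2 of 20 (10.0%), both small counts. Under the share of all genes were PAS_FragB, with 4 low genes of 69 (5.80%), and PAS_FragD, with 1 of 25 (4.00%). Of the 11 low genes, PAS_c131_0020 at 37.1 FPKM and PAS_FragB_0069 at 96.1 FPKM were the last genes of chromosomes 3 and 1. PAS_c121_0005 and PAS_c121_0006 were adjacent, at 102 and 101 FPKM.

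Locus tags mostly run in series along a chromosome, but 424 PAS_chr genes had a number more than 20 away from both neighbours of the same prefix. Of these, 38 (8.96%) were low, against 256 of 4484 genes (5.71%) in series. Among genes shorter than the median gene the shares were 14.8% (34 of 229) and 8.94% (199 of 2226). Among longer genes they were 2.05% (4 of 195) and 2.52% (57 of 2258), in the opposite order. The median FPKM of short genes was 134 out of series and 135 in series. This comparison was chosen after the data were examined, and the labels do not say why these numbers stand apart.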
